A study of Mus musculus with 9 samples.

Results

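The genes Atf3, Egr1 and Cyr61 are stress and immediate early genes, and they were chosen by name: 3 of the 8329 genes in the expression table, read in all 9 libraries. The RNA came from sorted CD45-Ter119-CD31-CD51+CD200+ cells of wild-type C57BL/6J mice in 3 groups of 3 libraries. BM-MSCs were taken from bone marrow at day 0, P-SSCs from the periosteum of undisturbed bones at day 0, and graft P-SSCs from the periosteum of a donor femur on day 3 after it was placed under the skin of the back of a recipient mouse. Replicate 2 of the BM-MSCs and of the P-SSCs carries a label that joins a pair of sample names, and RNA of more than 1 mouse was combined in some replicates. The sort uses no mark of the donor, so cells of the recipient in the graft group cannot be told apart. Marrow was flushed, whereas periosteum was scraped off, cut up and digested for longer, so in these data tissue and cell preparation cannot be told apart between BM-MSCs and P-SSCs. P-SSCs and graft P-SSCs come from the same tissue, but whether their cells were prepared together is not given. The graft and the session of preparation therefore cannot be told apart between them.

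Immediate early genes are switched on within minutes of a stimulus such as a growth factor, stretch, injury or enzymatic digestion, because the factors that act on their promoters are already in the cell. Their RNA is short-lived, so its level in a sorted cell can reflect the tissue, the handling of the cells or both. ATF3 is a leucine zipper factor of the ATF/CREB family that is induced by many kinds of stress and often represses its targets. EGR1 is a zinc finger factor induced through serum response factor downstream of growth factor signalling. CYR61, now called CCN1, is a secreted matrix protein that binds integrins and is a classical target of YAP and TEAD as well as of serum response factor.

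Atf3 (ENSMUSG00000026628), like the other members a protein-coding gene, lies on the minus strand at chr1:191170296-191218039 on GRCm38, with 3 annotated transcripts from 3 start sites. A small RNA gene on the opposite strand, Gm24748, lies within its span. Cyr61 (ENSMUSG00000028195) lies on the minus strand at chr3:145646976-145649981 with 1 transcript of 5 exons. One value per gene was deposited, so the start sites of Atf3 and Egr1 are not separated here. The promoter of Egr1 was not analysed here, so its motifs were not searched. The promoters of Atf3 and Cyr61 are shown, which share a type of element, although the genes differed in level across the groups below. They are the 250 bases before the start site in RefSeq (GRCm38.p6), chr1:191183334-191183583 and chr3:145649986-145650235, printed 5′ to 3′ on the minus strand on which both genes lie, and capitals mark the motifs found.
Atf3: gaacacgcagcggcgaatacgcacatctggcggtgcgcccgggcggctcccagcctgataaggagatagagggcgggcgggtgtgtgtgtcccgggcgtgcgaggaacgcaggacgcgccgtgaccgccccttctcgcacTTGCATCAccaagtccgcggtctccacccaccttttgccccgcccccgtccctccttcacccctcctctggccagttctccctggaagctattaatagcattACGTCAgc
Cyr61: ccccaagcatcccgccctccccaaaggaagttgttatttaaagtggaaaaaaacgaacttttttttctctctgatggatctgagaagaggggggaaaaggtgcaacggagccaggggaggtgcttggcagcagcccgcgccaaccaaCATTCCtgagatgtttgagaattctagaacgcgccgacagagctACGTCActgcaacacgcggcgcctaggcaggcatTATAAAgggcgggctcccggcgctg
Both hold the core of a cAMP response element, ACGTCA, the type of site bound by ATF/CREB factors, at -8 to -3 in Atf3 and at -59 to -54 in Cyr61, counted from the start. On either strand this core is in 6.47% of 32851 RefSeq promoters of the same length. The Atf3 promoter also holds TTGCATCA at -110 to -103, which on the opposite strand matches TGATGNAA, an element of the amino acid response found in 3.45% of promoters. The Cyr61 promoter holds CATTCC at -103 to -98, which on the opposite strand is the TEAD motif GGAATG, found in 12.6%, and a TATAAA at -25 to -20, found in 12.4%. The full element TGACGTCA (1.55% of promoters), the AP-1 motif TGANTCA (6.75%), GCGGGGGCG (2.57%) and GCGTGGGCG (0.536%) of EGR factors, and the CArG box (1.47%) were searched on both strands and are not in these windows. A match describes letters only and is not evidence of binding.

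Values are FPKM, fragments normalised by the authors to gene length and library total, so levels can be compared between genes per length. The library totals recovered from the values were 16890241 to 21315438 fragments, and every value of the 1948 genes tested was a whole number of fragments for 1 length of the gene. Replicate libraries differed by more than counting error, with chi-square per degree of freedom of 11.1 to 278.2 within groups, so none was counted as a repeat of another. P-SSC replicate 3 stood apart. Across the tested genes its Pearson r with the other P-SSC libraries was 0.858 and 0.87, against 0.96 between those, and 0.826 to 0.839 with the graft libraries. Nerve sheath markers, of which 2 of 5 are in the table, summed to 117 FPKM in that library, against 8.32 and 29.0 in the other P-SSC libraries, 1.93 to 19.5 in BM-MSCs and 2.77 to 3.27 in graft P-SSCs. Blood cell markers, 5 of 21 in the table, summed to 441 to 610 FPKM in BM-MSCs, 14.5 to 72.3 in P-SSCs and 33.4 to 93.5 in graft P-SSCs, with Ptprc, Mpo and Adgre1 at 0 in all 3 P-SSC libraries. The red cell marker in the table, Hba-a2 (1 of 11), was at 618 to 2201 FPKM in BM-MSCs and at no more than 20.2 in the other libraries. Mitochondrial transcripts, 7 genes in the table, summed to 329 to 642 FPKM in BM-MSCs, 320 to 432 in P-SSCs and 93.3 to 116 in graft P-SSCs. The part of these values in the results below was not tested. Periosteal markers, 2 of 10 in the table, summed to 90.7 to 124.7 FPKM in BM-MSCs and 739 to 1036 in the periosteal libraries. Of them Postn had means of 105.3, 439.2 and 830.3 FPKM in BM-MSCs, P-SSCs and grafts, and Cilp of 0.0313, 331.9 and 134.5. Marrow stromal markers, 2 of 11 in the table, summed to 750.4 to 1134 FPKM in BM-MSCs, 98.1 to 167.7 in P-SSCs and 15.9 to 18.1 in grafts. The part of these values was not tested either. General skeletal stromal markers were not analysed here.

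Atf3 was the gene of the 3 that separated all groups. In BM-MSCs it stood at 10.7, 18.1 and 28.6 FPKM in replicates 1 to 3, from 266, 500 and 766 fragments. In P-SSCs it stood at 577, 611 and 271 FPKM, from 16739, 15946 and 7564 fragments. In graft P-SSCs it stood at 90.1, 90.8 and 88.8 FPKM, from 2342, 2843 and 2344 fragments. No library of one group overlapped with another group, in the order P-SSCs, graft P-SSCs, BM-MSCs, although P-SSC replicate 3 was 2.19 times lower than the mean of the other P-SSC libraries. The means were 19.1 ± 8.97, 486.3 ± 187.3 and 89.9 ± 0.997 FPKM (SD, n = 3). In the first 2 P-SSC libraries Atf3 ranked 30 among the 1948 genes tested, whereas in BM-MSCs it ranked 455 to 816. The 3 graft values lay within each other's 95% Poisson intervals (85.3 to 94.2 FPKM at the extremes), which cover counting error only.

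Egr1 gave another order, and 1 library set its level in P-SSCs. The gene (ENSMUSG00000038418) lies on the plus strand at chr18:34859823-34864984 on GRCm38, with 2 annotated transcripts. In BM-MSCs it stood at 13.0, 14.3 and 18.6 FPKM, from 827, 1015 and 1276 fragments. In P-SSCs it stood at 54.0, 37.3 and 514 FPKM, from 4013, 2491 and 36718 fragments. In graft P-SSCs it stood at 314.8, 340.4 and 276.4 FPKM, from 20934, 27281 and 18668 fragments. Every P-SSC and graft library exceeded every BM-MSC library, but P-SSC replicate 3, which was 11.3 times the mean of the other P-SSC libraries, lay above all graft libraries while the others lay below them. The means were 15.3 ± 2.91 in BM-MSCs, 201.7 ± 270.4 in P-SSCs and 310.5 ± 32.2 in graft P-SSCs (SD, n = 3), and the SD of the P-SSCs exceeded their mean. The deviation of P-SSC replicate 3 ran in opposite directions for the 2 transcription factors, low for Atf3 and high for Egr1.

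Cyr61 was high everywhere. It stood at 460.1, 467 and 588 FPKM in BM-MSCs, at 625, 486 and 452 in P-SSCs and at 658, 667 and 653 in graft P-SSCs, from at least 15690 fragments in every library. The ranges of BM-MSCs and P-SSCs overlapped, and the 3 graft libraries lay above all 6 others by a small margin. The means were 504.9 ± 71.9, 521.0 ± 91.3 and 659.3 ± 7.24 FPKM (SD, n = 3), and Cyr61 ranked between 26 and 39 of 1948 genes in all 9 libraries.

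**Figure D1:**
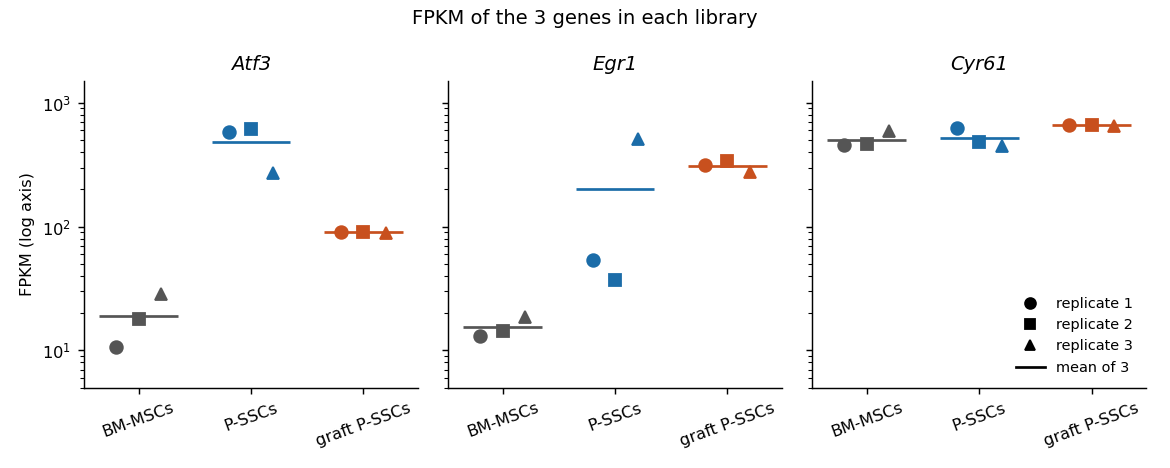
FPKM (log axis) of Atf3, Egr1 and Cyr61 in each library of BM-MSCs, P-SSCs and graft P-SSCs. Symbols are replicates and lines are means of 3. Atf3 separates the groups, with graft P-SSCs between 88.8 and 90.8. Egr1 in P-SSCs splits into 37.3 and 54.0 against 514, and Cyr61 stays between 452 and 667.

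The comparison of P-SSCs with BM-MSCs asks what differs between the tissues at steady state, together with their preparation. Of the 3 genes, 2 were called higher in P-SSCs by limma on log2(FPKM + 1) at an adjusted p under 0.05, where 24.2% of the 1948 genes were called. Of all genes tested, 9.8% were called higher and 14.4% lower. Atf3 was 24.4-fold higher on the FPKM + 1 scale (log2 4.61, SE 0.37, limma adjusted p = 1.76e-05), the rank 15 increase of all genes tested. Egr1 was 6.36-fold higher (log2 2.67, SE 0.78, limma adjusted p = 0.0318). Without P-SSC replicate 3 the Egr1 difference was smaller and firmer, 2.84-fold (log2 1.51, SE 0.21, limma adjusted p = 0.000552), and the call was lost when any 1 BM-MSC library was left out (limma adjusted p 0.0706 to 0.0984), and when graft replicate 1 was left out (0.0511). For Cyr61 the log2 difference was 0.04, with a 95% interval of -0.32 to 0.40, that is from 0.801 to 1.32-fold. For Atf3 and Egr1 no P-SSC library fell within the BM-MSC range, which held for 32.1% of genes tested, with P-SSCs higher in 12.9% and lower in 19.2%. In bulk RNA a larger share of cells with a transcript and more transcript per cell cannot be told apart.

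The comparison of graft P-SSCs with P-SSCs asks what changed by day 3 after transplantation within one tissue. Only Atf3 was called of the 3 genes, where limma called 34.1% of genes tested, 22.6% higher and 11.5% lower. It fell 5.04-fold on the FPKM + 1 scale (log2 -2.33, SE 0.37, limma adjusted p = 0.0012), the rank 44 decrease, and 6.54-fold (log2 -2.71) without P-SSC replicate 3. Egr1 was 3.02-fold higher in the mean (log2 1.59, SE 0.78, 95% interval -0.15 to 3.34, limma adjusted p = 0.144), and it was called without P-SSC replicate 3, at 6.76-fold (log2 2.76, SE 0.21, limma adjusted p = 9.78e-06). The Egr1 call in this comparison therefore turned on 1 library. For Cyr61 the log2 difference was 0.35 (95% interval -0.01 to 0.71, limma adjusted p = 0.12), and its groups did not overlap, as for 50.6% of genes tested, with grafts higher in 31.5% and lower in 19%. The median gene also moved up, by 0.26 on the log2 scale, and after median-of-ratios scaling the Cyr61 difference was 0.02.

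Graft P-SSCs were also compared with BM-MSCs, which joins tissue, preparation and transplantation. The comparisons share control samples, so each gene's values are given side by side and no agreement is read from them. Against BM-MSCs, Egr1 was 19.2-fold higher in the grafts (log2 4.26, SE 0.78, limma adjusted p = 0.0021), the rank 20 increase. Atf3 was 4.84-fold higher (log2 2.28, SE 0.37, limma adjusted p = 0.0011), so its level in the grafts had come down from P-SSCs but not to that of BM-MSCs. Both belong to the 41.9% of genes called, with 25.7% higher and 16.2% lower. Cyr61 was 1.31-fold higher with an interval of 1.02 to 1.69 and was not called (limma adjusted p = 0.075). It was called without P-SSC replicate 3 (limma adjusted p = 0.0393), and the difference was 0.14 on the log2 scale after median-of-ratios scaling. All 3 genes had no overlap here, as did 64.5% of genes tested, with grafts higher in 40.5% and lower in 24%.

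**Figure D2:**
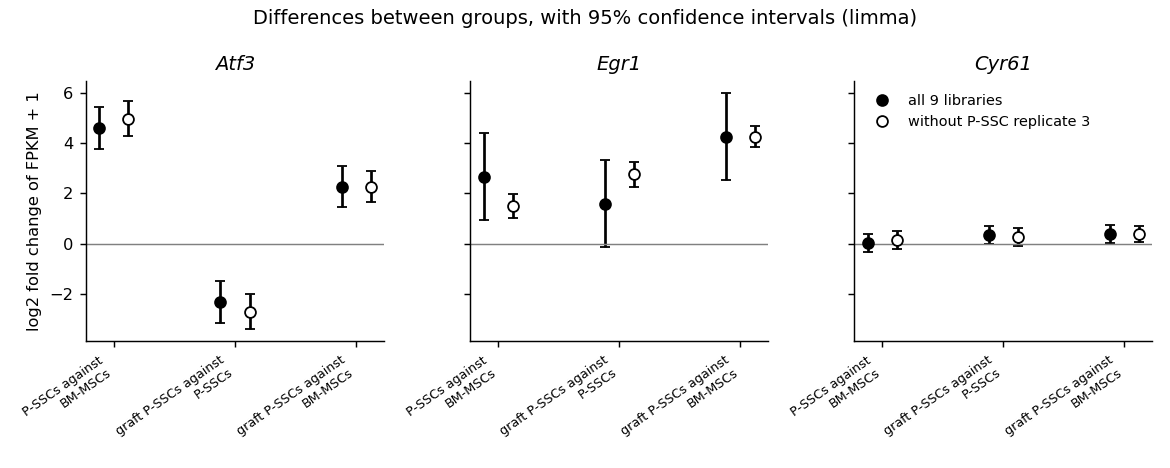
Log2 fold changes of FPKM + 1 for each gene and comparison, with 95% confidence intervals from limma, for all 9 libraries (filled) and without P-SSC replicate 3 (open). Atf3 lies at 4.61, -2.33 and 2.28 and keeps its sign. Egr1 against P-SSCs moves from 1.59 to 2.76 with a shorter interval, and every Cyr61 difference is below 0.4.

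With 3 libraries against 3, a two-sided exact permutation test cannot give a p below 0.1. That smallest value was reached in 7 of the 9 tests of the 3 genes (adjusted over the 9, exact p = 0.129). The exceptions were Egr1 between grafts and P-SSCs (exact p = 0.4, adjusted 0.45) and Cyr61 between P-SSCs and BM-MSCs (exact p = 0.7).

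Ratios within a library were taken on FPKM + 1 for the log2 values, so they depend little on the scaling of the library where both levels are high. The log2 ratio of Atf3 to Cyr61 was -4.74 ± 0.50 in BM-MSCs, -0.17 ± 0.54 in P-SSCs and -2.86 ± 0.0064 in graft P-SSCs (SD, n = 3). Without the added 1, in the first 2 P-SSC libraries Atf3 stood at 0.923 and 1.26 times the FPKM of Cyr61, whereas in BM-MSCs Cyr61 was 20.6 to 42.9 times higher than Atf3. The log2 ratio of Atf3 to Egr1 was 0.22 ± 0.43 in BM-MSCs, 2.16 ± 2.68 in P-SSCs and -1.77 ± 0.14 in graft P-SSCs. Its wide spread in P-SSCs came from opposite values: Atf3 was 10.7 and 16.4 times Egr1 in replicates 1 and 2 and 0.527 times in replicate 3. In all 3 graft libraries Egr1 exceeded Atf3, by 3.11 to 3.75 times. The ratio of Atf3 to Egr1 did not overlap between grafts and P-SSCs (difference of -3.93 on the log2 scale, exact permutation p = 0.1, the smallest possible). With 1 library left out this difference was -5.47 to -3.01.

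**Figure D3:**
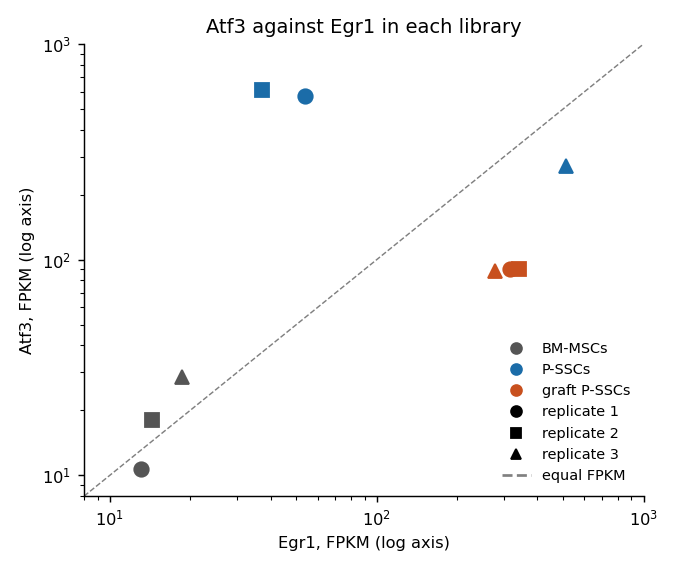
Atf3 against Egr1, both in FPKM on log axes, with 1 point per library, colour for group and symbol for replicate. The dashed line marks equal FPKM. BM-MSCs lie near the line at low values, P-SSC replicates 1 and 2 far above it, and P-SSC replicate 3 below it at 514 and 271, on the same side as the graft libraries.

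Of 65 genes listed as immediate early genes, 10 are in the table and 8 passed the filter: the 3 above, Fosl2, Nr4a2, Rhob, Tiparp and Hbegf. None of the 8 passed through 1 group alone. In P-SSCs 5 of 8 rose over BM-MSCs and none fell, where 9.8% of all genes tested were called higher and 14.4% lower, with a median log2 difference of 1.93 against -0.06 over all genes tested. Beside Atf3 and Egr1 these were Fosl2, a subunit of AP-1 (log2 1.58), Tiparp, an ADP-ribosyltransferase (log2 2.28), and Hbegf, a ligand of the EGF receptor (log2 2.61). The count was 3 without BM-MSC replicate 2, without the filter, with only the groups compared and with limma's voom on the recovered fragments, and 6 after quantile normalization, with Nr4a2 called too. Tiparp was at log2 1.42 without P-SSC replicate 3, and was not called by voom (limma adjusted p = 0.115). In graft P-SSCs 7 of 8 rose over BM-MSCs and none fell, where 25.7% of all genes were called higher and 16.2% lower, with a median of 2.59 against 0.28, and Cyr61 was the gene not called. Between grafts and P-SSCs only Hbegf rose (log2 1.51, limma adjusted p = 0.0254) and only Atf3 fell, where 22.6% of all genes tested were called higher and 11.5% lower. Without P-SSC replicate 3, 5 of 8 rose and Atf3 fell, where 32.7% of all genes were called higher and 13.1% lower. The call of Hbegf was lost after median-of-ratios scaling (log2 1.19, limma adjusted p = 0.0789).

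P-SSC replicate 3 divided these genes. Rhob, a small GTPase, stood at 3.19, 4.84 and 32.5 FPKM in P-SSC replicates 1 to 3, and at 19.2 to 33.4 in the grafts. Tiparp stood at 5.41, 5.24 and 37.0, against 19.0 to 24.9 in the grafts. Nr4a2, an orphan nuclear receptor, stood at 1.96, 1.42 and 9.09, against 9.54 to 10.9. In these genes, as for Egr1, replicate 3 was closer to the graft mean than to the mean of the other P-SSC libraries. That held for 4 of the 8 immediate early genes and for 893 of all 1948 genes tested (45.8%). Hbegf went the other way, at 11.8, 11.5 and 3.57 FPKM in P-SSCs and 24.4 to 24.96 in the grafts. Fosl2 stood at 8.76, 6.07 and 5.44 in P-SSCs and at 8.27 to 9.84 in the grafts. The nerve sheath markers were high in the same library, and their part was not tested.

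**Figure D4:**
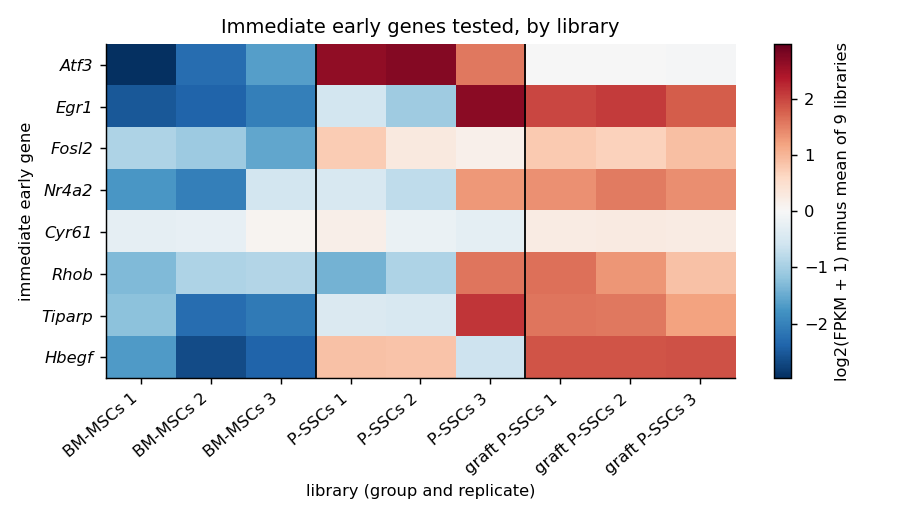
Log2(FPKM + 1) of the 8 immediate early genes tested (rows), minus the mean of each gene over the 9 libraries, for each library (columns). Red is above and blue below the mean. Egr1, Nr4a2, Rhob and Tiparp are red in P-SSC replicate 3 and in the grafts, Atf3 is red in P-SSCs alone, and Cyr61 is pale throughout.

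The partners and relatives of the 3 genes were measured in small numbers. Of 37 ATF and AP-1 factors, 3 were tested: Atf3, Fosl2 and Ddit3, the stress factor CHOP. Ddit3 stood at 28.9 to 39.1 FPKM in P-SSCs and was lower in the grafts (log2 -0.94, limma adjusted p = 0.0126), at 13.0 to 20.9. Against BM-MSCs at 39.96 to 50.7 FPKM, P-SSCs gave a log2 difference in Ddit3 of -0.37 that was not called (limma adjusted p = 0.313), beside the 4.61 of Atf3. Egr4 was at 0 in the 6 libraries of day 0 and at 0.389 to 1.55 FPKM in the grafts, under the filter. Wisp1, the CCN family member tested beside Cyr61 (2 of 6 genes tested), stood at 27.9 to 75.2 FPKM in BM-MSCs, 9.57 to 15.6 in P-SSCs and 46.3 to 65.8 in grafts. It was lower in P-SSCs than in BM-MSCs (log2 -1.73, limma adjusted p = 0.00508) and rose in the grafts (log2 2.16, limma adjusted p = 0.00133), where Cyr61 passed in neither comparison. Of 10 CYR61 receptors, 2 were tested: Sdc4, a syndecan, was not called in any comparison, and Itgb2, the integrin chain of white blood cells, was lower in P-SSCs than in BM-MSCs (log2 -3.34). Among the blood cell markers, Lyz2, Ptprc, Mpo and Adgre1 had the highest mean in BM-MSCs and the lowest in P-SSCs, as Itgb2 had. Adgre1 was nearly equal in BM-MSCs and grafts (means of 1.97 and 1.96 FPKM), and Mpo in BM-MSCs came from replicate 1 alone (292 FPKM). Csf1r went otherwise and was highest in the grafts, with means of 0.968, 0.497 and 5.94 FPKM in BM-MSCs, P-SSCs and grafts. The part of blood cells in the Itgb2 values was not tested.

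Of 23 YAP and TEAD targets, 4 were tested, and 1 rose in P-SSCs, where 9.8% of all genes were called higher and 14.4% lower. This was F3, the tissue factor gene, which stood at 3.87 to 5.88 FPKM in BM-MSCs and at 68.6, 67.1 and 213 in P-SSCs (log2 4.17, limma adjusted p = 4.53e-05). In the grafts it stood at 79.4 to 92.5. Nuak2, a kinase, was also called higher in P-SSCs after quantile normalization (log2 1.67, limma adjusted p = 0.042). Between grafts and P-SSCs, where 22.6% of all genes were called higher and 11.5% lower, none of the 4 was called, but Rbms3 was called lower after median-of-ratios scaling (log2 -0.79, limma adjusted p = 0.0124) and quantile normalization (-0.92, limma adjusted p = 0.0081). Of 18 cytoskeletal targets of serum response factor, 2 were tested. Actg2, a smooth muscle actin, stood at 0.832, 4.996 and 0 FPKM in P-SSCs and at 28.7 to 34.8 in grafts (log2 3.86, limma adjusted p = 0.00155), and it passed the filter only through the grafts, so it is given as values and in no count. The serum response factor gene itself, Srf, stood at 3.25, 1.71 and 5.501 FPKM in BM-MSCs, at 1.10, 3.73 and 10.8 in P-SSCs and at 34.5, 18.3 and 9.02 in grafts. Srf rose in the grafts over P-SSCs (log2 1.96, limma adjusted p = 0.0464), although P-SSC replicate 3 exceeded graft replicate 3, and the call was lost after median-of-ratios scaling (log2 1.68).

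Other stress genes were called in both directions. Of 33 genes of the integrated stress response, which acts through ATF4 and can induce Atf3, 5 were tested. Gdf15 is left out of the counts, for the reason given below. None of the others was called between P-SSCs and BM-MSCs, where 24.2% of all genes were. In that comparison Mthfd2 was called lower without P-SSC replicate 3 (log2 -1.01, limma adjusted p = 0.0444), as was Nupr1 after quantile normalization (-0.45, limma adjusted p = 0.0431). In the lists of this paragraph, calls between grafts and P-SSCs stand beside 22.6% of all genes called higher and 11.5% lower. Between grafts and P-SSCs Mthfd2, a mitochondrial folate enzyme (log2 2.46), and Slc3a2, an amino acid transporter chain (0.87), rose, whereas Nupr1, a stress-induced chromatin protein (-1.92), and Ddit3 fell. Gdf15, a stress cytokine, passed the filter through the grafts alone (1.01 to 2.02 FPKM, against at most 0.9 elsewhere), so no count is drawn from its difference, which voom did not call (limma adjusted p = 0.0529). The rise of Slc3a2 was not called after median-of-ratios scaling (0.54). Of 18 p53 targets, 3 were tested. Among them Cdkn1a, the cell cycle inhibitor p21, stood at 70.3 to 104.9 FPKM in BM-MSCs, at 342, 249 and 176 in P-SSCs and at 75.3 to 90.4 in grafts. Cdkn1a was higher in P-SSCs than in BM-MSCs (log2 1.49, limma adjusted p = 0.00153) and lower again in the grafts (log2 -1.55, limma adjusted p = 0.00117). Bax, which promotes apoptosis, was called higher in grafts than in P-SSCs (log2 0.49), and the call was lost after median-of-ratios scaling (log2 0.16). Both heat shock genes tested of 21, Hspe1 (log2 1.46) and Dnaja1 (0.84), and both oxidative stress genes tested of 17, Hmox1 (2.16) and Prdx1 (0.77), rose in the grafts over P-SSCs, and none of the 4 was called between P-SSCs and BM-MSCs, beside the 24.2% of all genes. After median-of-ratios scaling the graft calls of Dnaja1 (0.52) and Prdx1 (0.44) were lost, and Dnaja1 was called higher in P-SSCs than in BM-MSCs (0.58, limma adjusted p = 0.0465). Quantile normalization also called Dnaja1 there (0.61), and called Prdx1 lower (-0.33).

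Of the early inflammatory genes, 5 of 22 were tested: Cxcl1, Cxcl2, Il6 and Lif rose in P-SSCs over BM-MSCs, and Cxcl1, Cxcl2, Tnfaip3 and Lif rose in grafts over P-SSCs. Over all genes tested, 9.8% were called higher in the first comparison and 22.6% in the second. Cxcl2, a related chemokine, stood at 0.0392 to 1.13 FPKM in BM-MSCs, 2.02 to 3.39 in P-SSCs and 20.9 to 34.8 in grafts, and voom did not call it in the first comparison (limma adjusted p = 0.0594). Cxcl1, a neutrophil chemokine, stood at 2.98 to 3.92 FPKM in BM-MSCs, at 209, 137.1 and 60.8 in P-SSCs and at 321 to 379.8 in grafts. Il6 stood at 0.604 to 2.02 FPKM in BM-MSCs, at 92.8, 60.0 and 20.3 in P-SSCs and at 52.0 to 62.5 in grafts. Cxcl1 and Il6 were higher in P-SSCs than in BM-MSCs (log2 4.81 and 4.59), and Il6 was not called between grafts and P-SSCs. Tnfaip3, a feedback inhibitor of NF-kB, stood at 0.838, 0.75 and 11.1 FPKM in P-SSCs and at 39.8 to 55.9 in grafts (log2 3.88, limma adjusted p = 0.00263; log2 4.80 without P-SSC replicate 3). Cxcl1 and Il6 were low in P-SSC replicate 3, as Atf3 and Hbegf were, and Tnfaip3 was high there, as Egr1 was. The rise of Cxcl1 in the grafts was not called after median-of-ratios scaling (log2 1.18).

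Genes most like each member were sought among the 921 genes tested whose mean reached 10 FPKM, by Pearson r of log2(FPKM + 1) over the 9 libraries, which fall into 3 groups. Atf3 was closest to Bdh2 (r = 0.982), Disp1 (0.980), Tnxb (0.968), Duoxa1 (0.963) and Duox1 (0.960). Bdh2 stood at 0 to 0.0354 FPKM in BM-MSCs, at 63.1 to 113 in P-SSCs and at 9.91 to 12.4 in grafts, and so shared the order of Atf3. Egr1 was closest to Sfrp2 (0.986), a secreted regulator of WNT signalling, then to Tiparp (0.974), Gpsm2 (0.965), Marc2 (0.953) and the pseudogene Tpt1-ps3 (0.944), whose reads may belong to its parent gene. Sfrp2 stood at 42.7, 55.1 and 1551 FPKM in P-SSCs and at 880.3 to 1097 in grafts, with the same high replicate 3. Cyr61, which varied least of the 3, was closest to Farsb (0.924), Dnmt1 (0.901), Tnpo3 (0.898), Hnrnpdl (0.897) and Heatr5a (0.896). Among themselves the members were less alike, with r of 0.457 for Atf3 and Egr1, 0.172 for Atf3 and Cyr61, and 0.451 for Egr1 and Cyr61.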

How the data were processed

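Sorted cells of 3 groups, with 3 libraries each, were profiled by poly-A RNA-seq. The authors mapped reads to GRCm38 with STAR 2.6.1d and deposited FPKM per gene. The submitters' processing notes also name CASAVA, fastp and featureCounts 1.5.0-p3. Whether libraries were directional is not given for each library. The lengths behind the FPKM equal the mean transcript length in GENCODE M21 within 1 base for 93.5% of 1714 tested genes with several transcripts, and were 1469, 3760 and 2019 bases in Atf3, Egr1 and Cyr61. Library totals and whole fragments were recovered on this basis (tolerance 1e-06).

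Genes with at least 1 FPKM in at least 3 of 9 libraries were tested (1948) with limma 3.58.1 in R 4.3.3 on log2(FPKM + 1), in 1 fit of all libraries with eBayes and a trend, Benjamini-Hochberg adjustment over all genes and a threshold of 0.05. The study's own count model was not run. The fit was tested on simulated data with 200 changed genes. The pseudocount of 1 lowers fold changes of low genes. Each replicate held RNA of distinct mice according to the study's methods.

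The members and lists were chosen with earlier results of these data known. The genes named are the members, all immediate early genes tested, up to 4 genes of each other list with the highest mean FPKM, and the 5 genes most like each member. Egr4 and Lif were named after their values were seen. Same-numbered libraries did not deviate together (r from -0.434 to 0.132), so no replicate block was used. Alternatives were other pseudocounts, filters and scalings, only the groups compared, a fit without the trend, robust eBayes, a replicate block and leaving out each library. voom on the recovered fragments was added after seeing the data.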

Additional observations from a re-analysis of the deposited data

How the results depend on the processing

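Atf3 was called in all 3 comparisons and under all 21 alternatives, with limma adjusted p of 3.05e-06 to 0.000623 for P-SSCs against BM-MSCs, 2.38e-05 to 0.0069 for grafts against P-SSCs and 0.000109 to 0.00677 for grafts against BM-MSCs. Leaving out 1 library gave log2 differences of 4.27 to 4.99, -2.71 to -2.12 and 1.94 to 2.604. Egr1 was called in 21 of 21 alternatives for grafts against BM-MSCs (log2 4.16 to 4.404 with 1 library left out).

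Egr1 in P-SSCs against BM-MSCs was called in 14 of 21 alternatives. It had the same log2 difference of 2.67 but lost the call without the filter (limma adjusted p = 0.0862) and in a fit of only the groups compared (0.0945), and voom on recovered fragments, added after seeing the data, gave 2.74 (0.0777). With 1 library left out it was 1.51 to 3.38. For grafts against P-SSCs Egr1 was 0.88 to 2.76 with 1 library left out, and was called without P-SSC replicate 3 alone, also with voom (2.78, limma adjusted p = 1.96e-05). Cyr61 in P-SSCs against BM-MSCs was never called and lay between -0.10 and 0.15 with 1 library left out, turning negative without BM-MSC replicate 1 (-0.02), BM-MSC replicate 2 (-0.01) or P-SSC replicate 1 (-0.10). Cyr61 in grafts against BM-MSCs was 0.33 to 0.51 with 1 library left out and was called in a fit of those groups alone (0.39, limma adjusted p = 0.0268), without BM-MSC replicate 3 (0.51, limma adjusted p = 0.042), and without P-SSC replicate 3 by limma (0.39) and by voom (0.39, limma adjusted p = 0.031).

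The number of immediate early genes called in P-SSCs against BM-MSCs was 3 without the filter, with only the groups compared and with voom, 6 with quantile normalization, and 3 to 5 with 1 library left out. In grafts against P-SSCs it was 1 with a pseudocount of 0.1, with median-of-ratios scaling and with quantile normalization, 6 with voom without P-SSC replicate 3, and 1 to 6 with 1 library left out. The difference in the log2 ratio of Egr1 to Cyr61 between grafts and BM-MSCs was 3.57 with a pseudocount of 5, against 3.87. The cause of these changes was not tested. With the replicate block 441, 621 and 755 genes were called, against 472, 665 and 816, and Egr1 in P-SSCs against BM-MSCs had a limma adjusted p of 0.0294. The block changed no call of the 3 genes. The 3 genes have at least 266 fragments in every library, and each group has 3 libraries.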
